A study of Mus musculus with 6 samples.

Results

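The E2F transcription factors and the retinoblastoma (pocket) proteins were followed through RNA-Seq of bone marrow-derived macrophages (BMDM). Some were deleted for *Ppp2ca*, a gene of the catalytic subunit (PP2Ac) of protein phosphatase 2A (PP2A). Genes were taken by symbol from the deposited table of read counts. All 10 symbols asked for, *E2f1* to *E2f5*, *E2f7*, *E2f8*, *Rb1*, *Rbl1* and *Rbl2*, were among its 55453 genes, and all 10 passed the filter on low counts that left 13680 genes for testing. There were 3 libraries of PP2Ac KO BMDM and 3 of PP2Ac WT BMDM, all on the C57BL/6 strain. By the study's text, PP2Ac KO cells came from mice with loxP sites around exon 1 of *Ppp2ca* and *cre* under the *Lyz2* (LysM) promoter, which is active in myeloid cells, and PP2Ac WT cells from WT mice bought separately. Bone marrow was grown into macrophages with M-CSF or with medium conditioned by fibroblasts. The text describes such BMDM as treated with the STING agonist cGAMP. The labels give no treatment, no age and no sex, and no untreated libraries were analysed here.

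Pocket proteins bind E2F factors and hold them silent until cyclin-dependent kinases (CDKs) phosphorylate them, which frees E2F to switch on genes for DNA synthesis. E2F1, E2F2 and E2F3 are activators, E2F4 and E2F5 mostly repress together with pocket proteins, and E2F7 and E2F8 repress without them. RB, encoded by *Rb1*, mainly holds the activators, whereas p107 (*Rbl1*) and p130 (*Rbl2*) bind E2F4 and E2F5 and, with the MuvB proteins, form the DREAM complex that represses cell-cycle genes in resting cells. PP2A removes phosphates from pocket proteins. The comparison asks whether the genes of this switch are expressed at other levels when the PP2A catalytic gene *Ppp2ca* is deleted. Protein amounts and phosphorylation were not measured.

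*Rbl1* and *E2f7* had the largest rise and fall of the 10 genes and *E2f8*, the close relative of *E2f7*, moved opposite to it, so their promoters are shown for the E2F-type letters and the cell cycle homology region (CHR) letters that E2F and DREAM are known to read. Sequences are the 250 bases before the start site in RefSeq (GRCm38.p6), printed on the strand of the gene, with matches in capitals. *Rbl1* is chr2:157204535-157204784 on the minus strand, *E2f7* chr10:110745189-110745438 on the plus strand and *E2f8* chr7:48881597-48881846 on the minus strand.
Rbl1: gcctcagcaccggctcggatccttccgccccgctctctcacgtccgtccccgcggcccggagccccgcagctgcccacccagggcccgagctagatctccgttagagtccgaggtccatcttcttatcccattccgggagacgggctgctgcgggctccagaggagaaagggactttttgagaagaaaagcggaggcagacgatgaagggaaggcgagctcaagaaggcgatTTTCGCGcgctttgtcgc
E2f7: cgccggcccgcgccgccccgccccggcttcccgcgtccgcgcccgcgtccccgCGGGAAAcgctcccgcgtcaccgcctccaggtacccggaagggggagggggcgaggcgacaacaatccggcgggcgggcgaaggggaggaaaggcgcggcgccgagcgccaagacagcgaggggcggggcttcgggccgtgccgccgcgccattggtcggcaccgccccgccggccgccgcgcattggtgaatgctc
E2f8: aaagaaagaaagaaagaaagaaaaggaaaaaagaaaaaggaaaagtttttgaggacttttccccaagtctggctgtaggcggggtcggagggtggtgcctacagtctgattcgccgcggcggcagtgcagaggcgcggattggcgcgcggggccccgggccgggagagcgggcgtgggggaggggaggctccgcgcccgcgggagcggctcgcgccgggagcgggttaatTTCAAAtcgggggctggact
The E2F-type letters searched were TTTCGCG, then TTTGGCG, also TTTCCCG and finally TTTGCCG. The CHR letters were TTTGAA and also TTCGAA, and both kinds were sought on both strands. *Rbl1* held TTTCGCG from base -18 before its start. In *E2f7* the reverse complement of TTTCCCG began at base -197, and in *E2f8* the reverse complement of TTTGAA began at base -20. Windows of 300 bases, 250 before and 50 after a start, were found for 7 of the 10 genes, 9 windows in all. E2F-type letters occurred in 4 of these 9 windows, from 4 genes (*E2f2*, *E2f3*, *E2f7* and *Rbl1*), and in 6.7% of the 32851 windows of all genes. CHR letters also occurred in 4 of the 9 windows, from 4 genes (*E2f2*, *E2f3*, *E2f8* and *Rbl2*), against 19.2% of all windows. No match of one kind overlapped a match of the other. The window for *E2f1* starts 294 bases from the nearest start in the GENCODE annotation and the first for *E2f2* 120 bases from it, so these may not be the starts used. A match in letters is not a measured binding site.

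Libraries held between 35257156 and 47390899 counts, and 3 counts, taken as the smallest signal, correspond to between 0.0604 and 0.0909 CPM (read counts scaled to a common library size). These limits cover counting error only. *Ppp2ca*, the targeted gene, had 33 to 47 counts in PP2Ac KO libraries and 8279 to 10654 in PP2Ac WT libraries. Macrophage genes were abundant, with means for *Csf1r* of 3405 ± 137 (PP2Ac KO) and 3011 ± 179 CPM (PP2Ac WT, SD, n = 3), although *Lyz2* was at only 8.86 ± 1.13 and 7.30 ± 0.912 CPM. The summed level of 8 macrophage markers was apart, at 8623 to 8733 CPM in PP2Ac KO and 7279 to 7840 CPM in PP2Ac WT. Of these 8 markers, 2 were called higher in PP2Ac KO and 0 lower, where 18.1% and 19.0% of all genes tested were called. The neutrophil genes *Ly6g* and *Retnlg*, the erythroid gene *Alas2* and the T cell gene *Cd8a* had 0 counts in every library. Other markers of these types were counted at low levels. Neutrophil markers summed to 0.839 to 0.939 CPM in PP2Ac KO and 0.664 to 0.906 CPM in PP2Ac WT. Erythroid markers summed to 0.283 to 0.455 and 0.322 to 0.453 CPM. Summed lymphoid markers ran from 0.542 to 1.01 CPM in PP2Ac KO and from 0.322 to 0.414 CPM in PP2Ac WT. These ranges were apart, but 0 of the 6 lymphoid markers passed the filter on low counts, so none was tested. Fibroblast genes were counted in every library and less in PP2Ac KO, where the summed level of 8 listed markers ran from 25.4 to 37.7 CPM, against 81.2 to 126.9 CPM in PP2Ac WT. Of the 7 fibroblast markers tested, 6 were called lower in PP2Ac KO, against 19.0% of all genes tested, and none of the 8 was at 0 in all libraries. Summed progenitor markers were also apart, at 6.21 to 6.37 CPM against 4.83 to 5.39 CPM. Of these 3 markers only *Cd34* was called higher in PP2Ac KO, and their median log2 fold change was 0.0173. Dendritic markers overlapped, at 1.03 to 1.82 CPM in PP2Ac KO and 0.763 to 1.11 CPM in PP2Ac WT. Of the 2 dendritic markers tested, *Siglech* was called higher. In whole cultures, fewer cells of a type and less RNA per cell cannot be told apart, and the part of other cell types in the differences given here was not tested. Labels do not say whether the libraries of a group came from separate mice, so p-values measure the spread between these libraries, which may be technical.

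Across the 10 genes, 3 rose in PP2Ac KO (*Rbl1*, *E2f8* and *E2f4*) and 4 fell (*E2f7*, *E2f2*, *E2f1* and *Rbl2*) at an adjusted p under 0.05 (quasi-likelihood F-test in edgeR, Benjamini-Hochberg method, all genes). Among all genes tested, 18.1% were called higher and 19.0% lower. The remaining genes, *E2f3*, *E2f5* and *Rb1*, did not pass the test. The median log2 fold change of the 10 genes was -0.15, and that of all genes tested was -0.02. At the stricter limits of the study (log2 fold change over 1 and adjusted p under 0.01), only *Rbl1* was higher and, at the mirrored limits, only *E2f7* was lower, where 3.36% and 2.99% of all genes tested were called. The 3 PP2Ac KO libraries lay all above the 3 PP2Ac WT libraries for 3 genes (24.0% of all genes tested) and all below them for 5 (26.8%), the fifth being *Rb1*, and the groups overlapped for *E2f3* and *E2f5*. Groups did not overlap for 50.9% of all genes tested. With single libraries left out, the number of genes called higher fell to 1 without PP2Ac KO library 2, PP2Ac WT library 2 or PP2Ac WT library 3, and the number called lower fell to 2 without PP2Ac KO library 1 or PP2Ac WT library 2.

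**Figure D1:**
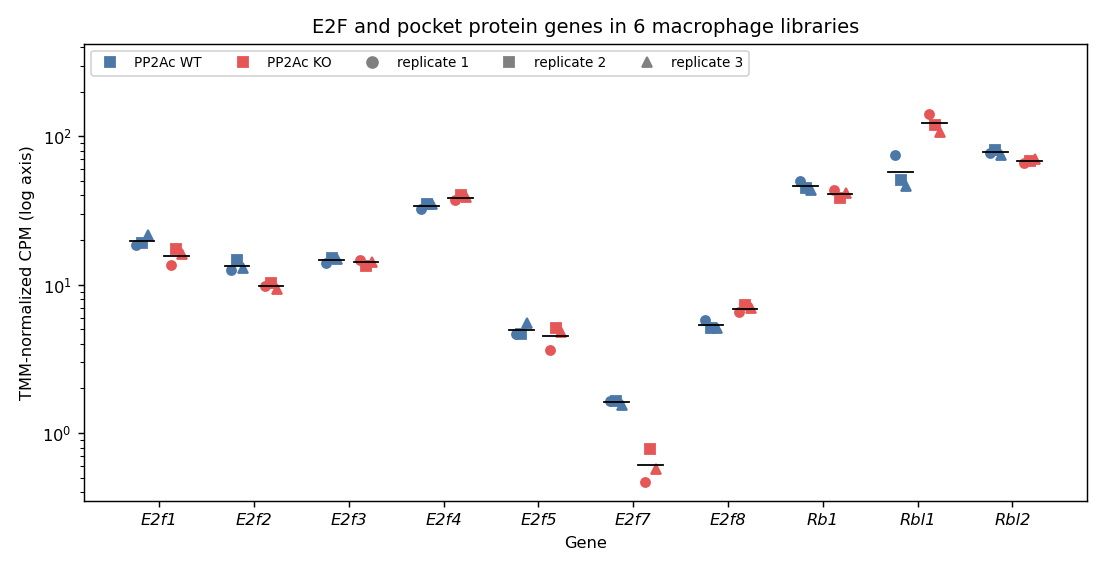
TMM-normalized CPM (log axis) of the 10 genes in each of the 6 libraries, with PP2Ac WT in blue, PP2Ac KO in red, a marker shape for each replicate number and a line at each group mean (n = 3). *Rbl1* lies between 46.5 and 75.5 CPM in PP2Ac WT and between 107 and 142 CPM in PP2Ac KO, and *E2f7* is the lowest gene in every library.

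Of the pocket proteins, p107 was the one whose gene rose. *Rbl1* (chr2:157145893-157204534, GRCm38) had 142, 119 and 107 CPM in PP2Ac KO libraries 1, 2 and 3, and 75.5, 50.8 and 46.5 CPM in PP2Ac WT libraries 1, 2 and 3. Every PP2Ac KO library was above every PP2Ac WT library, and library 1 was the highest of its group in both genotypes. The means were 123 ± 17.9 and 57.6 ± 15.6 CPM (SD, n = 3), a 2.13-fold difference with a log2 fold change of 1.09 (SE 0.17, edgeR adjusted p = 0.00127). This was the largest rise among the 10 genes in the fit of all libraries. It was called in all 13 alternative fits, with log2 fold changes from 0.96 to 1.34.

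*Rbl2* (chr8:91070057-91123844), the gene of p130, moved the other way and by little. Its level was 66.0, 68.2 and 70.0 CPM in the PP2Ac KO libraries and 77.8, 81.4 and 74.8 CPM in the PP2Ac WT libraries, without overlap. The log2 fold change was -0.20 (SE 0.06, edgeR adjusted p = 0.0280). Its call was lost without PP2Ac KO library 1, PP2Ac KO library 2 or PP2Ac WT library 2 (adjusted p = 0.0752, 0.0831 and 0.119 from edgeR).

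*Rb1* (chr14:73183673-73325822) had 43.4, 38.6 and 41.6 CPM in the PP2Ac KO libraries, against 50.3, 44.7 and 43.7 CPM in PP2Ac WT. All PP2Ac KO values were lower, but PP2Ac KO library 1 nearly reached PP2Ac WT library 3. Its log2 fold change of -0.17 (95% interval -0.33 to 0.00163) did not pass the test (adjusted p = 0.111 from edgeR). With the replicate number as a block it did (log2 fold change -0.16, adjusted p = 0.0122 from edgeR), and also with upper-quartile scaling (-0.23, adjusted p = 0.0225).

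Exons of *Rb1* and *Rbl2* overlap genes on the opposite strand. *Rcbtb2* and *Lpar6* cover 8.11% and 6.78% of the exon bases of *Rb1*, and *Aktip* covers 9.17% of those of *Rbl2*. These neighbors were themselves lower in PP2Ac KO, with log2 fold changes of -0.69, -0.38 and -0.26 (adjusted p = 1.16e-04, 0.00496 and 0.0161 from edgeR). The library kit keeps strand, but the strand setting of the counting is not given in the sources used here, so reads in these stretches may not be assigned to 1 gene, and their part in the small decreases was not tested. *Rbl1* has no such overlap, and none of its 5940 windows of 50 transcript bases occurs in a transcript of another gene.

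*Rbl1* made up more of the pocket family RNA in every PP2Ac KO library than in any PP2Ac WT library. On the scale of CPM per kb of exon, which allows genes to be compared, *Rbl1* made up 59.8%, 56.2% and 52.5% of the summed level of the 3 genes in PP2Ac KO libraries and 40.3%, 31.8% and 31.1% in PP2Ac WT libraries. The share of *Rb1* was 18.9% ± 1.20 in PP2Ac KO and 27.9% ± 1.20 in PP2Ac WT, and that of *Rbl2* 24.9% ± 2.67 and 37.7% ± 4.11 (SD, n = 3). The summed level of all 3 genes was 36.3 ± 2.96 CPM per kb in PP2Ac KO and 27.6 ± 3.27 in PP2Ac WT (SD, n = 3), while that of *Rb1* and *Rbl2* without *Rbl1* was 15.9 ± 0.376 and 18.01 ± 0.767. For each of these values the groups did not overlap, and the exact two-sided permutation test gave p = 0.1, the smallest that 3 against 3 libraries allow. For the *Rbl1* share and the sum of *Rb1* and *Rbl2* this outcome was fixed, because each gene already separated the groups. Those tests therefore add nothing to the levels of the genes. Shares of a total depend on each other, so the lower shares of *Rb1* and *Rbl2* also carry the rise of *Rbl1*.

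**Figure D2:**
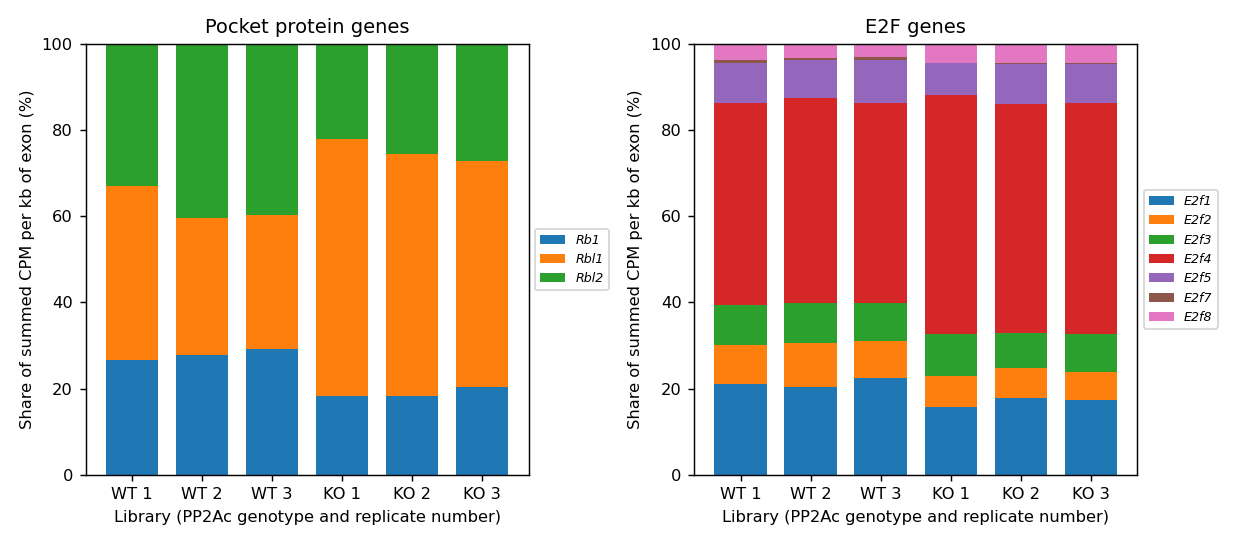
Share of each gene in the summed level of its family (CPM per kb of exon, in percent) for the pocket protein genes on the left and the E2F genes on the right, with 1 bar per library. The *Rbl1* segment covers 52.5% to 59.8% of the PP2Ac KO bars and 31.1% to 40.3% of the PP2Ac WT bars, and *E2f4* is the largest E2F segment in every library.

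Of the activator genes, *E2f1* and *E2f2* fell and *E2f3* did not pass the test. *E2f2* (chr4:136172394-136196057) had 9.76, 10.3 and 9.30 CPM in the PP2Ac KO libraries, against 12.7, 14.7 and 12.98 CPM in PP2Ac WT, without overlap. Its log2 fold change was -0.46 (SE 0.09, edgeR adjusted p = 0.00312), and it was called in all 13 alternative fits.

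*E2f1* (chr2:154559407-154569892), the gene of the founding member of the family, had 13.6, 17.3 and 16.2 CPM in the PP2Ac KO libraries, against 18.6, 19.2 and 21.8 CPM in PP2Ac WT. The groups did not overlap, but PP2Ac KO library 1 lay apart below the other two PP2Ac KO libraries. The log2 fold change was -0.34 (SE 0.10, edgeR adjusted p = 0.0273). The call was lost without PP2Ac KO library 1 or 3, or without PP2Ac WT library 2 or 3 (adjusted p = 0.0893, 0.0550, 0.0588 and 0.0842 from edgeR). For *E2f3* (chr13:29906575-29986063), PP2Ac KO libraries had 14.8, 13.5 and 14.2 CPM and PP2Ac WT libraries 13.9, 15.2 and 14.96 CPM, so the groups overlapped. Its log2 fold change was -0.05 with a 95% interval of -0.22 to 0.11 (adjusted p = 0.593 from edgeR).

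*E2f4*, which mostly acts as a repressor with p107 and p130, was the most abundant E2F gene per kb of exon in both genotypes. It lies at chr8:105297663-105305370 and had 37.4, 40.1 and 38.8 CPM in the PP2Ac KO libraries, against 32.2, 34.8 and 35.1 CPM in PP2Ac WT. The PP2Ac KO libraries were all higher after TMM scaling, though the groups overlapped on library totals alone. The log2 fold change was 0.19 (SE 0.06, edgeR adjusted p = 0.0415). This call was weak, because it was lost without any 1 of the 6 libraries (adjusted p from 0.0570 to 0.154), with upper-quartile scaling (0.198) and without the filter on low counts (0.1001). *E2f5* (chr3:14578641-14606309), its close relative, had 3.65, 5.09 and 4.82 CPM in the PP2Ac KO libraries, against 4.69, 4.67 and 5.51 CPM in PP2Ac WT. Its groups overlapped, and the log2 fold change of -0.14 had a 95% interval of -0.46 to 0.19 (adjusted p = 0.494 from edgeR).

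The genes of the atypical repressors E2F7 and E2F8 moved in opposite directions. *E2f7* (chr10:110745439-110787384) had 20, 26 and 24 counts in PP2Ac KO libraries and 82, 72 and 65 counts in PP2Ac WT libraries, which is 0.471, 0.788 and 0.575 CPM against 1.65, 1.66 and 1.55 CPM. The groups stood well apart, and the log2 fold change of -1.42 (SE 0.22, edgeR adjusted p = 9.68e-04) was a 2.68-fold decrease. It was called in all 13 alternative fits, at log2 fold changes from -1.62 to -1.27. Of its windows of 50 transcript bases, 0.426% also occur in other genes.

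*E2f8* (chr7:48866429-48881596) had 6.51, 7.30 and 6.95 CPM in the PP2Ac KO libraries, against 5.78, 5.13 and 5.13 CPM in PP2Ac WT, again without overlap. On library totals alone, without the TMM factors, its groups overlapped. The log2 fold change was 0.37 (SE 0.10, edgeR adjusted p = 0.0176). Its call was lost without PP2Ac KO library 2, PP2Ac WT library 2 or PP2Ac WT library 3 (adjusted p = 0.0680, 0.0690 and 0.0516 from edgeR). Exons of *Gm2788*, on the opposite strand, cover 11.2% of the exon bases of *E2f8*, but *Gm2788* had only 6 to 13 counts per library. Per kb of exon, *E2f8* exceeded *E2f7* by 15.3-fold to 22.8-fold in PP2Ac KO libraries and by 5.13-fold to 5.79-fold in PP2Ac WT libraries. Because both genes already separated the groups, in opposite directions, this ratio had to separate them too. Its test adds nothing (exact two-sided permutation test, p = 0.1, the smallest possible).

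**Figure D3:**
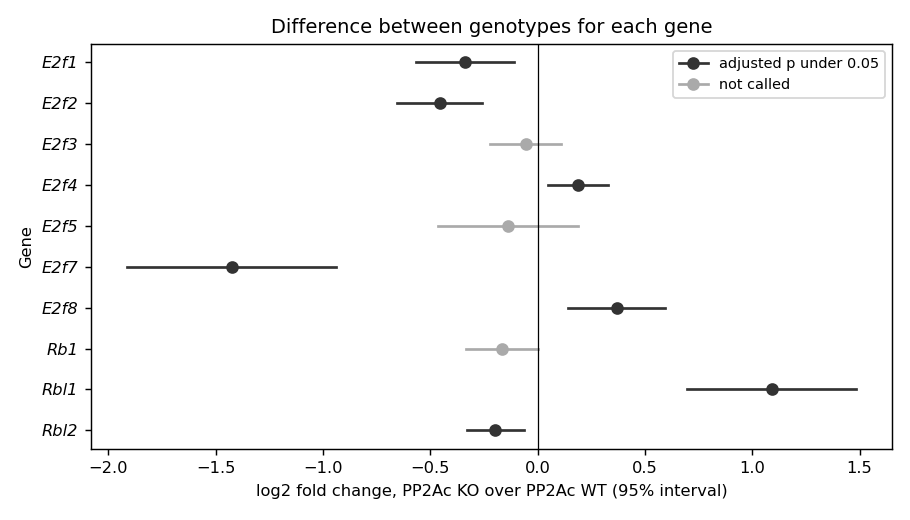
Log2 fold change of each gene, PP2Ac KO over PP2Ac WT, with its 95% interval from edgeR (3 libraries per group). Dark points passed the test, and *Rbl1* at 1.09 and *E2f7* at -1.42 lie farthest from 0.

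The levels of the 10 genes kept much of their order between genotypes. In PP2Ac WT, *E2f4* was highest at a median of 14.2 CPM per kb of exon, followed by *Rbl2* at 10.3, *Rbl1* at 8.48, *Rb1* at 7.44 and *E2f1* at 6.09. The ranges of *Rbl2* and *Rbl1* overlapped, as did those of *Rbl1* and *Rb1*. *E2f5*, *E2f2* and *E2f3* came next, with medians from 2.63 to 2.75 and overlapping ranges, then *E2f8* at 0.942 and *E2f7* at 0.183. In PP2Ac KO, *Rbl1* came first at a median of 19.8 CPM per kb, above *E2f4* at 15.8, and these ranges did not overlap. *Rbl2*, *Rb1* and *E2f1* followed at 9.02, 6.91 and 5.15, each apart from the next. The ranges of *E2f3* and *E2f5* overlapped, as did those of *E2f5* and *E2f2*, and *E2f8* and *E2f7* were again lowest, at 1.28 and 0.0638.

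The summed level of the 7 E2F genes was 29.3 ± 1.58 CPM per kb in PP2Ac KO and 29.6 ± 1.40 in PP2Ac WT (SD, n = 3), and the groups overlapped (exact two-sided permutation test, p = 0.7). Within that sum, the 3 activator genes made up 32.8%, 32.8% and 32.7% in PP2Ac KO libraries and 39.4%, 39.9% and 39.9% in PP2Ac WT libraries. *E2f4* made up 54.0% ± 1.10 and 46.9% ± 0.558 (SD, n = 3). The groups did not overlap for either share, and the exact permutation p was 0.1, its smallest value. The ratio of the summed pocket protein genes to the summed E2F genes was 1.25 ± 0.166 in PP2Ac KO and 0.938 ± 0.157 in PP2Ac WT (SD, n = 3, exact permutation p = 0.1). Only *Rbl1* raised this ratio, since *Rb1* and *Rbl2* summed to 15.9 ± 0.376 CPM per kb in PP2Ac KO and 18.01 ± 0.767 in PP2Ac WT.

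Genes whose level followed a member across the 6 libraries were sought among all genes tested, as a description. For *E2f8*, the highest Pearson correlations of log2 CPM were with *Psma2*, *Cutc* and *Commd3* (r = 0.996, 0.995 and 0.994), and for *Rb1* with *Pdzd8*, *Asb8* and *Aff4* (each r = 0.991 or 0.990). *Tmem129* (r = 0.996) and *Tomm40l* (r = 0.993) were among the 3 genes most like *E2f1*. With 6 libraries in 2 groups such values are common, since 171, 352 and 50 genes had an r over 0.95 with *E2f1*, *E2f8* and *Rb1*.

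The DNA-binding partners of E2F and the proteins that complete DREAM were also measured. *Tfdp2*, one of the DP partners, fell from 12.1 ± 0.804 to 8.05 ± 0.566 CPM (SD, n = 3), with a log2 fold change of -0.59 (adjusted p = 0.00101 from edgeR). *E2f6*, a repressor that does not bind pocket proteins, also fell (-0.41, adjusted p = 0.0334), while *Tfdp1* was at 32.4 ± 1.63 and 33.7 ± 1.79 CPM in PP2Ac KO and PP2Ac WT. Of 9 genes of the MuvB core and its partners, 3 fell and 1 rose. *Foxm1* (log2 fold change -1.13), *Mybl2* (-0.97) and *Mybl1* (-0.66), which encode activators of the cell cycle that take the place of pocket proteins on MuvB or use it, were lower, and the core gene *Lin9* (0.33) was higher. *Lin54* had a log2 fold change of 0.36 and was not called without the replicate block but was called with it (adjusted p = 0.0820, and 5.40e-04 with the block, from edgeR), which made 2 higher genes. *Lin37*, *Lin52*, *Rbbp4* and *Dyrk1a*, the last a kinase that promotes DREAM assembly, had log2 fold changes from -0.16 to 0.04 and did not pass the test. The median of these 9 genes was 0.01. Over all genes tested, 18.1% were called higher and 19.0% lower.

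Genes of the enzymes that phosphorylate pocket proteins were split. *Ccnd2* and *Ccnd1*, which encode D cyclins, went up from 14.999 ± 4.13 CPM to 73.2 ± 12.5 CPM and from 51.2 ± 11.0 to 125 ± 17.6 CPM (SD, n = 3), log2 fold changes of 2.28 and 1.28, and *Ccnd3* rose by 0.24. *Ccna2* (cyclin A2), *Cdk2* and *Cdk4* fell, by 1.53, 0.56 and 0.31 on the log2 scale. *Ccne1* had a log2 fold change of 0.01. *Cdk6* (0.39) and *Ccne2* (-0.46) did not pass without the replicate block in the fit of all libraries and passed with it (adjusted p = 0.0629 and 0.1501, and 2.38e-05 and 0.0314 with the block, from edgeR). So 3 of these 9 genes were higher and 3 lower. For this list and the next, the shares over all genes tested were 18.1% higher and 19.0% lower. Of 6 CDK inhibitor genes tested, 2 rose and 2 fell. *Cdkn1a*, which encodes p21, went up from 483 ± 68.8 CPM to 1026 ± 76.9 CPM (SD, n = 3), with a log2 fold change of 1.09, and *Cdkn2d* rose by 0.44. *Cdkn2c* fell by 0.84 and *Cdkn2b* by 1.48, from 0.336 ± 0.0768 to 0.124 ± 0.0501 CPM (SD, n = 3). *Cdkn2b* had only 4, 6 and 4 counts in PP2Ac KO libraries and 21, 12 and 13 in PP2Ac WT libraries. It passed the filter on low counts through the PP2Ac WT libraries alone, and its PP2Ac KO level was near the smallest signal. With the replicate block 3 were higher and 3 lower, since *Cdkn1c* (0.23) and *Cdkn1b* (-0.18) then passed as well (adjusted p = 0.0508 and 0.0901, and 7.47e-04 and 0.00523 with the block, from edgeR). The block called 3343 of all 13680 genes tested higher and 3615 lower.

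Phosphatase subunits tied to pocket proteins included the B55 alpha gene *Ppp2r2a*, whose product directs PP2A to p107. It went up from 55.8 ± 6.25 CPM to 87.3 ± 4.76 CPM (SD, n = 3), with a log2 fold change of 0.65 (adjusted p = 4.90e-04 from edgeR). The scaffold genes *Ppp2r1b* (0.42) and *Ppp2r1a* (0.20) rose as well. Besides *Ppp2ca* itself (-7.67), *Ppp2r3a* (-0.66) and *Ppp1cc* (-0.27) fell, and the other catalytic gene *Ppp2cb* had a log2 fold change of 0.03. Per kb of exon, *Ppp2cb* was at 29.2 ± 0.692 CPM in PP2Ac KO and 28.6 ± 0.387 in PP2Ac WT. *Ppp2ca* was at 27.5 ± 1.14 CPM per kb in PP2Ac WT (SD, n = 3), so RNA of a PP2A catalytic subunit remained in PP2Ac KO. The 11 genes split into 3 higher, 3 lower and 5 not called (median 0.03). Shares over all genes tested, for this list and the next, were 18.1% higher and 19.0% lower. Of 12 genes of co-repressors that bind pocket proteins, *Hdac1* (log2 fold change 0.72) and *Arid4a* (0.59) rose and 0 fell. With the replicate block 5 were higher (*Sin3b*, *Smarca4* and *Arid4b* in addition) and 1, *Sin3a*, was lower. That fit called 3343 of all 13680 genes tested higher and 3615 lower.

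Known targets of E2F and DREAM were measured as well. Of 28 G2/M genes repressed by DREAM, 26 were lower in PP2Ac KO and 2 higher, with a median log2 fold change of -1.16, against -0.02 over all genes tested and 19.0% of all genes called lower. *Cenpf* (-2.003), *Ccnb2* (-1.71), *Hmmr* (-1.55) and *Kif20a* (-1.55), which serve the kinetochore, mitotic entry, the spindle and cytokinesis, fell most. The spindle genes *Tpx2* and *Cenpe* rose, by 0.59 and 0.53. *Tpx2* and *Cenpe* were both called in the fit of all libraries, and the count of higher genes was 1 without PP2Ac KO library 1, PP2Ac WT library 2 or PP2Ac WT library 3. The count of lower genes was 26 in all 13 alternative fits.

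The G1/S genes that E2F activates were less uniform. Of 38 genes, 20 were lower, 3 higher and 15 not called, with a median of -0.39. Over all genes tested, 19.0% were lower and 18.1% higher. The ribonucleotide reductase gene *Rrm2* fell from 14.0 ± 0.803 to 3.39 ± 0.859 CPM (SD, n = 3), with a log2 fold change of -2.05 (adjusted p = 6.03e-05 from edgeR), followed by *Dscc1* (-1.35), *Uhrf1* (-0.98) and *Mcm7* (-0.90). *Rfc3* (0.81), a clamp loader subunit, and the nucleoside kinase gene *Dck* (0.74) rose, as did *Mcm10* (0.42). The number of higher genes was 6 with the replicate block and 5 without PP2Ac WT library 1. Among apoptosis targets of E2F, *Apaf1* (0.84), which encodes the core of the apoptosome, and *Bbc3* (0.24) rose. Not all genes of that list are reported here, so no count over it is given. *Pmaip1* had a log2 fold change of 0.01 and *Bcl2l11* one of 0.13, which did not pass without the block but passed with it (adjusted p = 0.342, and 0.0207 with the block, from edgeR). The fibroblast level given above was also lower in PP2Ac KO, and its part in the lower G1/S and G2/M levels was not tested.

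**Figure D4:**
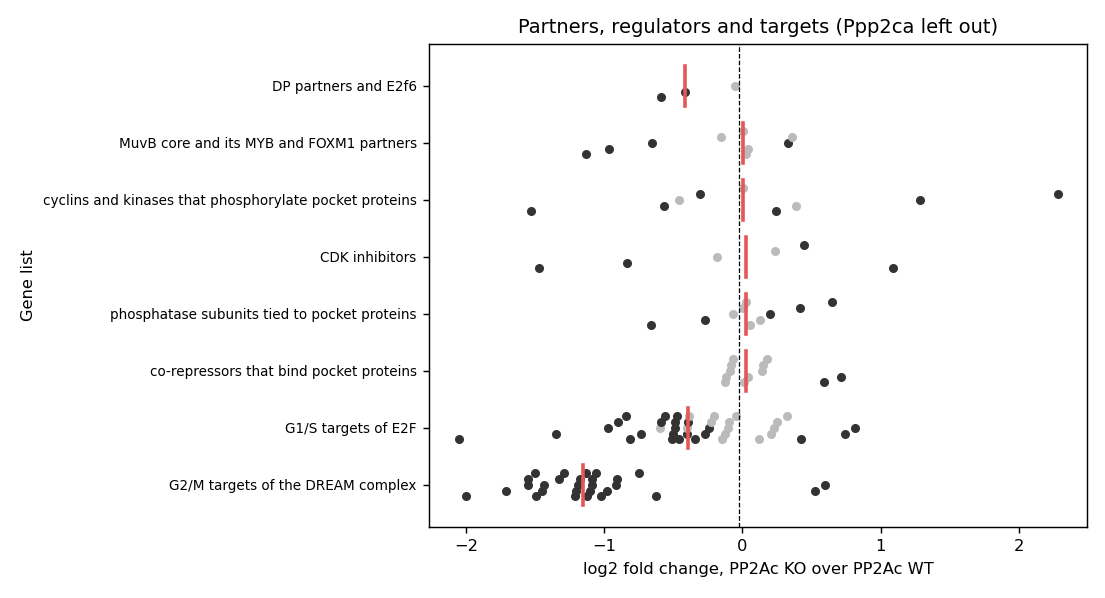
Log2 fold change, PP2Ac KO over PP2Ac WT, of each tested gene in 8 lists of E2F and pocket protein partners, regulators and targets, without *Ppp2ca* (-7.67). Dark points passed edgeR's test, red lines are list medians with *Ppp2ca* included, and the dashed line is the median of all genes tested (-0.02). The G2/M list, with a median of -1.16, lies farthest to the left.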

How the data were processed

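All 6 libraries (3 PP2Ac KO, 3 PP2Ac WT) were analysed. The authors deposited raw read counts per gene symbol, without normalization. Their processing notes name fastp 0.20.0, STAR 2.7.1a, HTSeq 0.11.2, kallisto 0.46.1, edgeR 3.34.0 and limma 3.48.3 without roles, and the builds mm10 and GRCm38. Annotation release and strand setting are not given in the sources used here. Groups and replicate numbers came from sample titles.

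Counts were filtered with filterByExpr (minimum count 10, minimum total 15), TMM-scaled and fitted on genotype in edgeR 4.0.16 (glmQLFit, glmQLFTest; R 4.3.3), and p-values were adjusted by Benjamini-Hochberg across 13680 genes. CPM use TMM factors, which were 0.910 to 0.937 in PP2Ac KO and 1.05 to 1.10 in PP2Ac WT. The factors thus split by genotype, and small differences in CPM depend on them. On library totals alone, the groups overlapped for *E2f4* and *E2f8*. Levels per kb use the union of exons in GENCODE M21, matched by symbol. Library totals ran from 35257156 to 47390899. A single value over 3 against 3 libraries was tested by exact permutation (smallest p 0.1). Within groups, pairs of libraries differed by 9.32 to 45.5 times counting variance (chi-square per degree of freedom), so none was a repeat deposit.

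In a paired alternative, replicate numbers, read from the titles, entered as a block. Same-numbered libraries deviated together from their group means (correlation across genes 0.249, 0.123 and 0.310). Between differently numbered libraries the correlation ran from -0.233 to -0.0149. Deviations cancel within a group, so these values are linked to each other. The fit was also repeated with DESeq2 1.42.0, limma-voom (3.58.1), other scalings (upper-quartile, RLE), other filters (none, or 10 counts in every library) and without each single library, and, for shares, with the longest transcript or no length.

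The 10 genes and all lists were chosen with earlier results of these data known, so list counts are descriptions. Named were all 10 genes. Any gene of a list of up to 12 genes could be named, and those named are a selection. In longer lists the rule named the 4 called genes with the most negative and the 2 with the most positive log2 fold change, and up to 3 genes most correlated with each of *E2f1*, *E2f8* and *Rb1*. *Mcm10* was named after its values were seen. Lists were written by hand. Some genes of the lists are not reported here.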

Additional observations from a re-analysis of the deposited data

How the results depend on the processing

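Over the 13 alternative fits, none of the 10 genes changed direction. *Rbl1*, *E2f7* and *E2f2* passed the test in all of them, and *E2f3* and *E2f5* in none. With the replicate number as a block, *Rb1* became significant, so that 5 genes were lower and 3 higher, and 3343 genes of all tested were higher and 3615 lower. Among the related lists, the block gave 2 higher MuvB genes (also DESeq2 and no filter, 2 each), 5 higher and 1 lower co-repressor genes (1 lower also with upper-quartile scaling) and 6 higher G1/S genes. Of the 8 macrophage markers, 5 were called higher in the block fit, against 2 in the main fit. *Csf1r* and *Lyz2* were higher with the block and not called without it. Apart from these and the genes given with their block values or as added members of a list, the block changed no call of a gene named in the report. CDK inhibitor genes called lower numbered 1 with DESeq2 and with 10 counts in every library, a filter that *Cdkn2b* does not pass. Leaving out single libraries gave ranges of 1 to 2 genes higher and 2 to 4 lower among the 10, 1 to 2 lower for DP partners (1 without PP2Ac KO library 1 or 2 or PP2Ac WT library 2 or 3), 0 to 2 higher for MuvB (0 without PP2Ac WT library 2, 2 without PP2Ac KO library 3 or PP2Ac WT library 1), 1 to 4 lower for CDK inhibitors (4 without PP2Ac WT library 3, 1 without PP2Ac KO library 3 or PP2Ac WT library 1), 2 to 4 higher for co-repressors (4 without PP2Ac WT library 1), 2 to 5 higher for G1/S and 1 to 2 higher for G2/M genes. The activator share differed by -7.20 percentage points on CPM without length, against -6.94 per kb, and by -7.12 to -6.84 with libraries left out. The *Rbl1* share differed by 19.9 to 24.7 points with libraries left out. The cause of these shifts was not tested. With 20 to 82 counts per library, *E2f7* has the lowest counts of the 10 genes.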
